A study of Bos taurus with 12 samples.

Results

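The 10 genes described here encode the potassium channels that repolarize the ventricular muscle cell and the pacemaker channels related to them: KCNIP2, KCND3, KCNJ2, KCNJ11, ABCC9, KCNQ1, KCNH2, KCNJ3, HCN2 and HCN4. They were taken by symbol from a table of 24616 genes, in which each of the 10 symbols occurs once. RNA was sequenced from the right ventricle of 12 wild-type Angus steers, each library from a different animal. All groups shared chronic hypoxia in the field: the calves were born and raised at 2170 m (7120 ft), castrated at 6 to 8 months and slaughtered at 13 to 15 months, and the study classed them after 15 months at altitude by repeated right heart catheterization and by clinical signs. The groups are hypoxia-tolerant animals with a low mean pulmonary arterial pressure (low PAP, 6 animals), animals with pulmonary hypertension that were otherwise healthy (PH-healthy, 3 animals) and animals with pulmonary hypertension and right heart failure (PH-failure, 3 animals). No group was kept at low altitude, so every comparison is between animals that had all lived in thin air.

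After each beat the ventricular cell is returned to its resting voltage by potassium currents that follow one another: a brief transient outward current through KCND channels with their partner KCNIP2, delayed rectifier currents through KCNQ1 and KCNH2, and an inward rectifier current through KCNJ2 that also holds the resting voltage. Channels of KCNJ11 with a sulfonylurea receptor (ABCC9 or ABCC8) open when ATP falls, and channels holding KCNJ3 open when acetylcholine acts on muscarinic receptors. HCN channels carry the pacemaker current, which is strongest in the sinus node and conduction system, and HCN transcripts in working ventricle are known to rise in many forms of hypertrophy and failure, in which transcripts of repolarizing channels often fall.

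HCN2 and ABCC9 were the members that rose with pulmonary hypertension. When the 2 hypertensive groups were averaged and set against low PAP, HCN2 was higher by 1.00 ± 0.25 (log2 of RPKM + 1, SE; limma adjusted p = 0.0067) and ABCC9 by 0.76 ± 0.19 (limma adjusted p = 0.00727). RPKM counts reads per length of exon and per depth of sequencing, and a difference on the log2(RPKM + 1) scale understates the change of genes at low levels. The other 6 members that could be tested did not pass the threshold of 0.05, and KCND3 and HCN4 were too low for the fit. Thus 2 of the 8 tested members were higher and 0 lower, where 37.3% of the 11374 genes tested were higher, 10.4% lower and 47.7% called in either direction. In bulk tissue, fewer cells of a type and less RNA per cell cannot be told apart.

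**Figure D1:**
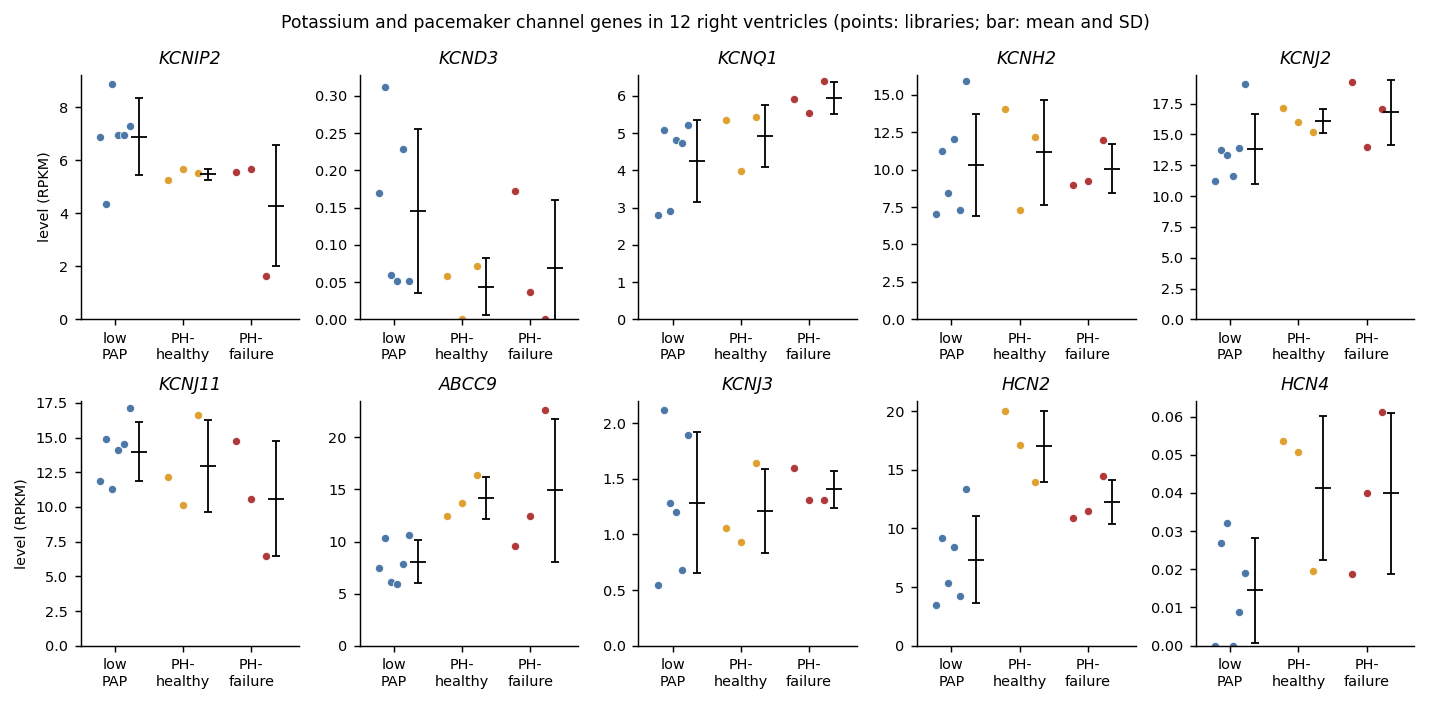
Level of each of the 10 genes in RPKM (linear axis from 0, a different range in each panel) in the 12 libraries, by group; points are libraries, and the bar beside each group is its mean and SD. HCN2 and ABCC9 lay higher in both hypertensive groups, KCND3 and HCN4 never reached 0.4 and 0.1 RPKM, and the lower end of the KCND3 bar in PH-failure is cut at 0.

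The libraries held 14739237 to 31090198 mapped reads, recovered from the steps between low values, and tested genes had a median of 370 reads. Most genes were measured slightly higher in the hypertensive groups: against low PAP the median log2 difference over all genes tested was 0.21 in PH-failure and 0.18 in PH-healthy, and it was 0.02 between the hypertensive groups. It was -0.03, -0.04 and -0.01 after quantile normalization and 0.01, -0.00 and -0.01 after scaling by median ratios, so that a difference near 0.2 was that of the middle gene. The library names carry the number 55 or 56, and each number holds libraries of all 3 groups. PH-failure replicate 3 stood apart in cell type markers: adipocyte markers summed to 1088 RPKM there and to 43.3 to 275 RPKM in the other 11 libraries, and cardiomyocyte markers to 58590 RPKM there and to 72685 to 94001 in the others. Values of members that rest on that library are given with and without it.

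Within the low-PAP ventricles the members spanned almost 3 orders of magnitude per length. KCNJ11 (14.0 ± 2.14 RPKM, SD, n = 6) and KCNJ2 (13.8 ± 2.83) stood highest and did not differ beyond their spread, followed by KCNH2 at 10.3 ± 3.41. KCNH2, ABCC9 (8.07 ± 2.04), HCN2 (7.34 ± 3.72) and KCNIP2 (6.88 ± 1.45) formed a middle group whose neighbours lay within the larger SD of each pair. KCNQ1 at 4.25 ± 1.10, KCNJ3 at 1.29 ± 0.631, KCND3 at 0.146 ± 0.110 and HCN4 at 0.0145 ± 0.0137 RPKM each lay below the gene before it by more than its spread. The gene model behind KCNQ1 held 987 exon bases within 12852 bases, so its level rests on a short stretch of the gene.

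**Figure D2:**
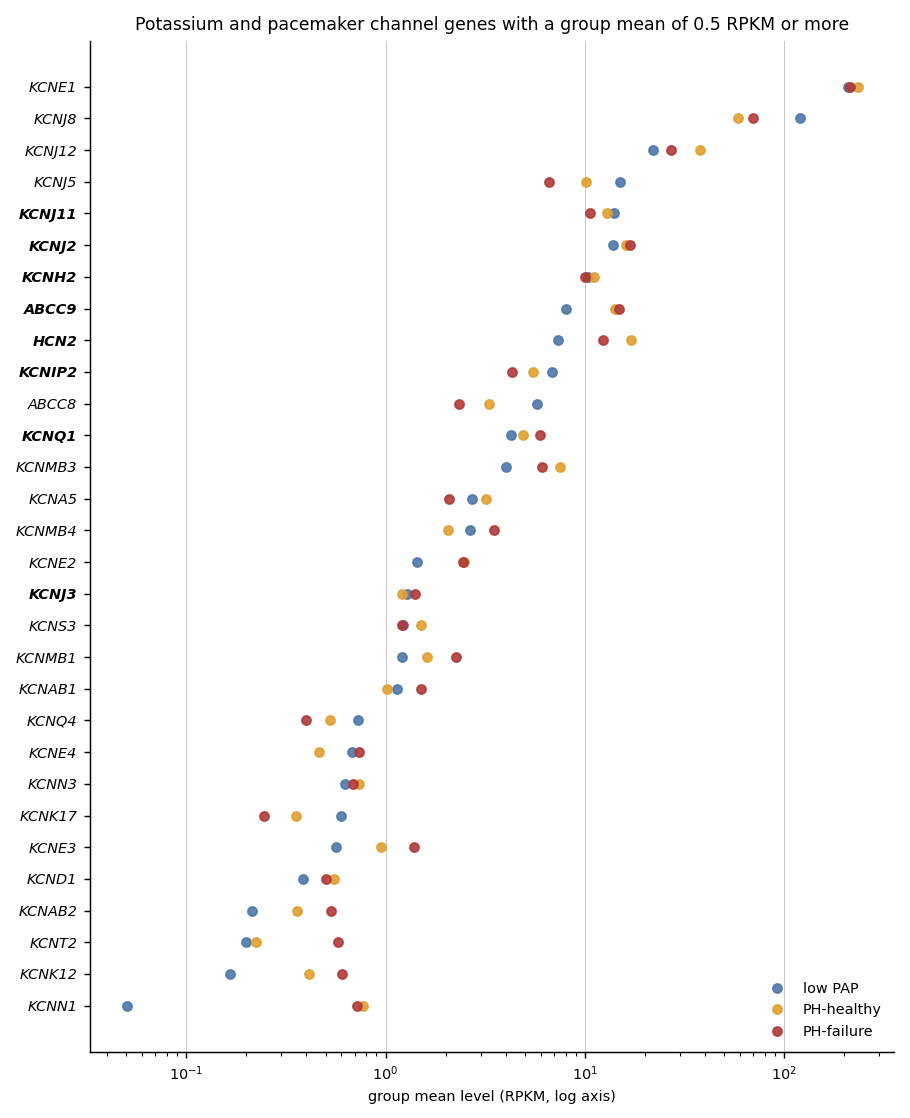
Group mean level (RPKM, log axis) of the members, whose names are in bold, and of the other potassium and pacemaker channel genes with a group mean of at least 0.5 RPKM; blue, orange and red points are low PAP (n = 6), PH-healthy (n = 3) and PH-failure (n = 3). The accessory gene KCNE1 and the pore genes KCNJ8 and KCNJ12 stood above every member, and HCN2 and ABCC9 moved right in both hypertensive groups.

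The transient outward current is represented by KCNIP2, the calcium-binding partner that brings KCND pores to the membrane (ENSBTAG00000016343, chromosome 26, 22422213 to 22440709). KCNIP2 measured 6.89, 4.36, 8.87, 6.95, 6.94 and 7.30 RPKM in low PAP replicates 1 to 6. It measured 5.26, 5.67 and 5.50 RPKM in the PH-healthy libraries and 5.54, 5.68 and 1.65 RPKM in the PH-failure libraries. Of the 6 low-PAP libraries, 5 lay above all 6 hypertensive ones, and low-PAP replicate 2 lay below all but PH-failure replicate 3. The log2 difference from low PAP was -0.67 ± 0.26 in PH-failure (limma adjusted p = 0.0609) and -0.26 ± 0.26 in PH-healthy (0.447), neither past the threshold. Without PH-failure replicate 3 the value for PH-failure was -0.23 (limma adjusted p = 0.359), and without low-PAP replicate 2, PH-failure replicate 1 or PH-failure replicate 2 it was -0.78, -0.88 and -0.90, past the threshold at 0.0316, 0.0316 and 0.0436. It also passed, at -0.94 and -0.88, after quantile normalization (0.0331) and median-ratio scaling (0.0349), and the average of both hypertensive groups, -0.47 (0.0848), moved to -0.73 (0.0255) and -0.67 (0.0315) under the same settings. Among libraries named 55 the difference in PH-failure was -1.71, with PH-failure replicate 3 as the only library of that group, and among those named 56 it was -0.07.

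The pore genes that KCNIP2 serves were low in these ventricles. KCND3 (ENSBTAG00000031654, chromosome 3, 31464989 to 31684943) measured 0.170, 0.312, 0.0590, 0.0521, 0.229 and 0.0519 RPKM in low PAP. In PH-healthy it measured 0.0588, 0 and 0.0717 RPKM, and in PH-failure 0.172, 0.0365 and 0 RPKM. These are 51, 7 and 7 reads summed over the low-PAP, PH-healthy and PH-failure groups, and 3 reads, the limit that a count of 0 allows, correspond to 0.0492 to 0.104 RPKM. The groups overlapped, and 2-sided exact permutation tests of log2(RPKM + 1) gave p = 0.345 (PH-failure) and p = 0.190 (PH-healthy) against low PAP, where 6 against 3 libraries allow no p under 0.0119. The other KCND pore of ventricular muscle, KCND2, had 0 reads in all 12 libraries, and KCNA4, a slower transient outward pore, had 54 reads in all. KCND1, another pore of this family named after its values were seen, had 305 reads and was also under the filter, at 0.273 to 0.473 RPKM in low PAP, 0.671, 0.480 and 0.501 in PH-healthy and 0.838, 0.329 and 0.336 in PH-failure. All PH-healthy libraries lay above all low-PAP ones for KCND1, and PH-failure overlapped them. In each library where KCND3 had a read, KCNIP2 stood 14.0 to 156 times higher per length.

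KCNQ1 (ENSBTAG00000010986, chromosome 29, 49676545 to 49689396), the pore of the slow delayed rectifier, measured 2.79, 5.07, 2.90, 4.82, 4.73 and 5.21 RPKM in low PAP. It measured 5.35, 3.97 and 5.43 RPKM in PH-healthy and 5.91, 5.53 and 6.39 RPKM in PH-failure. All PH-failure libraries lay above all low-PAP ones, while PH-healthy overlapped low PAP. The log2 difference was 0.43 ± 0.18 in PH-failure (limma adjusted p = 0.0750) and 0.19 ± 0.18 in PH-healthy (0.414), so neither passed. It did pass for PH-failure when low-PAP replicate 6 was left out (0.48, limma adjusted p = 0.0468), the smallest p of all alternatives run. Over those alternatives, libraries left out included, the PH-failure difference ran from 0.12 to 0.63 (limma adjusted p 0.0468 to 0.565). KCNE1, the accessory subunit that slows KCNQ1 channels, was the most abundant channel gene on the lists at 208 ± 52.6, 235 ± 38.4 and 215 ± 67.9 RPKM in low PAP, PH-healthy and PH-failure, and did not pass in any comparison. Its level over that of KCNQ1 ran from 21.5 to 75.7 in low PAP, from 36.6 to 68.6 in PH-healthy and from 24.3 to 48.9 in PH-failure.

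KCNH2 (ENSBTAG00000004078, chromosome 4, 114325567 to 114357974) forms the rapid delayed rectifier, the channel blocked by many drugs that prolong the QT interval. Its levels were 7.01, 11.2, 8.47, 12, 7.33 and 15.9 RPKM in low PAP, 14.0, 7.27 and 12.2 in PH-healthy, and 8.97, 9.26 and 12 in PH-failure. All hypertensive values lay inside the low-PAP range. The log2 difference was 0.01 ± 0.24 in PH-failure and 0.11 ± 0.24 in PH-healthy (limma adjusted p = 0.983 and 0.751), and it changed sign after quantile normalization (-0.24 and -0.10) and after median-ratio scaling (-0.22 and -0.09). KCNE2, an accessory subunit that can join KCNH2, stood at 1.44 ± 0.698, 2.47 ± 0.315 and 2.45 ± 1.05 RPKM and was called only when both hypertensive groups were averaged (0.54 ± 0.20, limma adjusted p = 0.0439), a call lost without any one of 7 libraries and under 6 other settings, among them quantile normalization (0.22, limma adjusted p = 0.430) and median-ratio scaling (0.38, 0.159).

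The inward rectifier KCNJ2 (ENSBTAG00000008294, chromosome 19, 61185602 to 61195897), the gene of the channel also called Kir2.1, was one of the 2 most abundant members. It measured 11.2, 13.8, 13.3, 11.6, 13.9 and 19.1 RPKM in low PAP, 17.1, 16.0 and 15.2 in PH-healthy, and 19.3, 14.0 and 17.1 in PH-failure. All 6 hypertensive libraries lay above 5 of the 6 low-PAP libraries, and low-PAP replicate 6 lay among the highest. The log2 differences, 0.27 ± 0.15 for PH-failure and 0.23 ± 0.15 for PH-healthy (limma adjusted p = 0.171 and 0.259), were close to the median of all genes and did not pass. Without low-PAP replicate 6 that for PH-failure was 0.36 and passed (limma adjusted p = 0.0313). Over all alternatives run, libraries left out included, it ran from 0.03 to 0.39 (limma adjusted p 0.0313 to 0.869). KCNJ12, its relative of the same inward rectifier family, stood at 22.0 ± 8.53, 38.0 ± 9.56 and 27.2 ± 5.32 RPKM in low PAP, PH-healthy and PH-failure. KCNJ12 rose in PH-healthy (0.81 ± 0.27, limma adjusted p = 0.0340), a call lost when any one of 6 libraries was left out (low-PAP replicate 1, 2, 3 or 5, PH-healthy replicate 1 or 2; limma adjusted p up to 0.156) and after median-ratio scaling (0.60, 0.0935). Per length there was as much KCNJ12 as KCNJ2 or more in all 12 libraries, with a ratio of 1.01 to 2.86.

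ABCC9 (ENSBTAG00000019294, chromosome 5, 88677585 to 88831324) encodes SUR2, the sulfonylurea receptor of ATP-sensitive potassium channels in heart and vascular muscle. It measured 7.49, 10.4, 6.10, 5.94, 7.83 and 10.7 RPKM in low PAP, 12.4, 13.7 and 16.4 in PH-healthy, and 9.61, 12.5 and 22.7 in PH-failure. All PH-healthy libraries lay above all low-PAP ones; in PH-failure, replicate 1 lay inside the low-PAP range and replicate 3 was the highest of the 12. ABCC9 rose by 0.77 ± 0.24 in PH-healthy (limma adjusted p = 0.0264) and by 0.76 ± 0.24 in PH-failure (0.0289). In PH-failure it was the only member called of the 8 tested, where 33.8% of all genes were called, 28% higher and 5.79% lower; in PH-healthy it was called with HCN2, 2 of 8, where 34.7% were called, 26.6% higher and 8.15% lower.

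Both single-group calls of ABCC9 were near the threshold. For PH-failure the value was 0.43 (limma adjusted p = 0.161) without PH-failure replicate 3 and 0.84 (0.0531) without PH-failure replicate 2; without low-PAP replicate 3 or 4 it was 0.69 (0.0584 and 0.0574). For PH-healthy the call was lost when low-PAP replicate 3 or 4, or any one of the 3 PH-healthy libraries, was left out (limma adjusted p 0.0527 to 0.102). Quantile normalization gave 0.52 (0.0906) and 0.56 (0.0645), and median-ratio scaling 0.53 (0.0728) and 0.57 (0.0522), for PH-failure and PH-healthy. For the average of both hypertensive groups the call held under every alternative run and without each library (0.54 to 0.89, limma adjusted p 0.00242 to 0.0436). Within libraries named 55 the average was higher by 1.02, and within those named 56 by 0.51.

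The pore partner KCNJ11, the gene of Kir6.2 (ENSBTAG00000016170, chromosome 15, 35650714 to 35653362), measured 11.9, 14.9, 11.3, 14.1, 14.6 and 17.1 RPKM in low PAP. It measured 12.1, 10.2 and 16.6 RPKM in PH-healthy and 14.8, 10.6 and 6.47 RPKM in PH-failure. The groups overlapped, and PH-failure replicate 3 was the lowest of the 12. The log2 difference was -0.42 ± 0.21 in PH-failure and -0.11 ± 0.21 in PH-healthy (limma adjusted p = 0.136 and 0.702). For PH-failure it was -0.14 (0.626) without replicate 3 of that group, -0.68 (limma adjusted p = 0.0268) without replicate 1, and -0.66 (0.0371) after median-ratio scaling. Among libraries named 55 it was -1.02, against the single PH-failure replicate 3, and among those named 56 it was -0.11.

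KCNJ8 and ABCC8, which also encode subunits of ATP-sensitive channels, fell. KCNJ8, whose product Kir6.1 is the pore best known from vascular smooth muscle and pericytes, measured 115, 125, 111, 94.1, 184 and 91.3 RPKM in low PAP. It measured 44.4, 63.6 and 69.2 RPKM in PH-healthy and 103, 53.0 and 54.1 RPKM in PH-failure. All hypertensive libraries except PH-failure replicate 1 lay below all low-PAP libraries. KCNJ8 fell by 0.99 ± 0.25 in PH-healthy and by 0.80 ± 0.25 in PH-failure on the log2 scale (limma adjusted p = 0.0112 and 0.0293); the latter call was lost without PH-failure replicate 2 (-0.63, limma adjusted p = 0.117) or 3 (-0.65, 0.127), and the former without PH-healthy replicate 1 (-0.80, 0.0653). ABCC8, the gene of the sulfonylurea receptor SUR1, measured 4.31 to 7.41 RPKM in low PAP, 2.57, 2.88 and 4.43 in PH-healthy, and 3.77, 2.26 and 0.953 in PH-failure, where every library lay below low PAP. It fell by 1.10 ± 0.24 in PH-failure (limma adjusted p = 0.00779) and held that call without each library in turn; in PH-healthy it fell by 0.66 ± 0.24 at 0.0495, a call lost without any one of 9 libraries. For both hypertensive groups together KCNJ8 differed by -0.98 and -0.81, and ABCC8 by -1.01 and -0.75, within libraries named 55 and 56.

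Relative to each other, the 4 subunit genes of the ATP-sensitive channel were thus in different proportion. ABCC9 over ABCC8 was 1.06 to 2.00 in low PAP, 3.71 to 4.83 in PH-healthy and 2.55 to 23.8 in PH-failure, with no overlap between low PAP and either hypertensive group. ABCC9 over KCNJ11 was 0.421 to 0.696 in low PAP and 0.988 to 1.35 in PH-healthy, while PH-failure, at 0.650, 1.18 and 3.51, reached into the low-PAP range. KCNJ8 stood above KCNJ11 in all 12 libraries, at 5.33 to 12.6 times its level in low PAP, 3.65 to 6.26 times in PH-healthy and 5.02 to 8.36 times in PH-failure. These ratios are descriptions of levels per length within each library, which a single scaling factor per library leaves as they are, and were not tested.

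**Figure D3:**
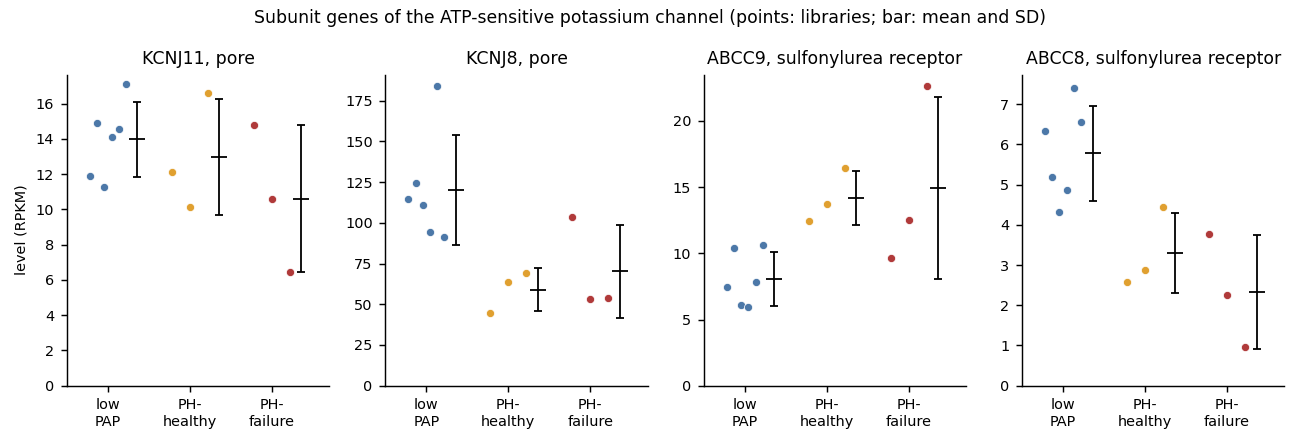
Level in RPKM (linear axis from 0, a different range in each panel) of the pore genes KCNJ11 and KCNJ8 and the sulfonylurea receptor genes ABCC9 and ABCC8 in each library, with mean and SD per group. ABCC9 lay higher and ABCC8 and KCNJ8 lower in the hypertensive groups, and PH-failure replicate 3, the last red point in each panel, had the highest ABCC9 and the lowest KCNJ11 and ABCC8.

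ABCC9 and KCNJ8 are both also expressed by pericytes and smooth muscle. Of 15 markers of these cells, KCNJ8 among them, 12 were called in PH-failure against low PAP, 10 higher and 2 lower, and 6 in PH-healthy, 4 higher and 2 lower, where 33.8% and 34.7% of all genes were called. KCNJ8 and HIGD1B were the markers that fell. Without KCNJ8 and DES, which heart muscle also expresses, the markers summed to 148 to 252 RPKM in low PAP, 206 to 249 in PH-healthy and 227 to 394 in PH-failure. The part of these cells in the levels of ABCC9 and KCNJ8 was not tested.

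KCNJ3 (ENSBTAG00000006159, chromosome 2, 41361136 to 41491255) encodes GIRK1, a subunit of the acetylcholine-gated channel that is abundant in atrium and sparse in ventricle. It measured 0.546, 2.12, 1.28, 1.2, 0.677 and 1.89 RPKM in low PAP, 1.06, 0.931 and 1.64 in PH-healthy, and 1.60, 1.31 and 1.31 in PH-failure, all inside the low-PAP range. In PH-failure the log2 difference was 0.12 ± 0.21 and in PH-healthy -0.02 ± 0.21 (limma adjusted p = 0.678 and 0.961), and the first was -0.16 after quantile normalization. Its partner KCNJ5 (GIRK4), at 15.0 ± 4.88 RPKM in low PAP and 10.2 ± 0.555 in PH-healthy, measured 11.1, 6.39 and 2.47 RPKM in PH-failure. KCNJ5 fell there by 1.19 ± 0.32 on the log2 scale (limma adjusted p = 0.0157), and by 0.71 (0.0789) without PH-failure replicate 3; within libraries named 55 and 56 the difference was -1.95 and -0.91. Of 6 atrial markers tested, 2 rose and 2 fell in PH-failure, where 33.8% of all genes were called. In PH-healthy 1 rose and 2 fell, where 34.7% were called. MYL7, the atrial myosin light chain, stood at 4812 ± 1525, 652 ± 158 and 900 ± 596 RPKM in low PAP, PH-healthy and PH-failure. MYBPHL stood at 8.91 ± 4.32, 2.00 ± 0.561 and 2.35 ± 1.62 RPKM, and both were called lower. GJA5, at 3.64 ± 1.82, 8.22 ± 1.87 and 7.84 ± 1.58 RPKM, was called higher in both groups. NR2F2, at 3.39 ± 0.535, 4.09 ± 0.976 and 5.46 ± 0.558 RPKM, was called higher in PH-failure. All 9 atrial markers summed to 3100 to 6794, 551 to 890 and 439 to 1857 RPKM in these groups, and without MYL7 to 28.9 to 136.5, 65.0 to 110.6 and 35.6 to 296.6. The part of atrial muscle in the level of KCNJ5 was not tested. KCNJ5 over KCNJ3 was 7.27 to 29.3 in low PAP, 6.05 to 10.5 in PH-healthy and 1.89 to 6.91 in PH-failure.

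Of 13 receptors and G protein genes that act on KCNJ3 channels, 12 were tested. In PH-failure 3 rose and 1 fell, and in PH-healthy 2 rose and 1 fell, so that 4 and 3 of 12 were called where 33.8% and 34.7% of all genes were. CHRM2, the muscarinic receptor that opens these channels, rose from 3.48 ± 1.35 RPKM to 6.28 ± 0.566 in PH-healthy (0.75 ± 0.22, limma adjusted p = 0.0206) and 5.67 ± 1.10 in PH-failure (0.61 ± 0.22, 0.0457). The PH-healthy call was lost without any one of the 3 PH-healthy libraries (limma adjusted p 0.0514 to 0.0728) and the PH-failure call without any one of 9 libraries, PH-failure replicate 3 among them (0.49, 0.178), and both after quantile normalization (0.47 and 0.29, limma adjusted p = 0.0764 and 0.265). RGS2, a brake on G protein signalling, and GNAI2 rose and GNAI1 fell in PH-failure (0.80, 0.51 and -0.44; limma adjusted p = 0.0301, 0.0422 and 0.0421). GNB5, a G protein beta subunit that works with RGS proteins, rose and GNG2 fell in PH-healthy (0.62 and -0.55; limma adjusted p = 0.00706 and 0.0455). RGS6, the partner of GNB5, fell when both hypertensive groups were averaged (-0.40, limma adjusted p = 0.0319). Without PH-failure replicate 3, RGS2 stood at 0.48 and GNAI2 at 0.48, neither called (limma adjusted p = 0.167 and 0.126). RGS2 was also not called after quantile, median-ratio or non-mitochondrial scaling (0.62, 0.56 and 0.72; limma adjusted p = 0.0925, 0.0906 and 0.0525). The call of GNB5 held without each library but not after quantile normalization (0.34, limma adjusted p = 0.0840) or with the replicate number as a block (0.51, 0.0702); the calls of RGS2, RGS6, GNAI2, GNG2 and GNAI1 were lost without any one of 3, 5, 7, 8 and 10 libraries.

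HCN2 (ENSBTAG00000015050, chromosome 7, 44831439 to 44850882), the pacemaker channel gene best known from ventricle, measured 3.45, 9.18, 5.37, 8.46, 4.27 and 13.3 RPKM in low PAP. It measured 20.0, 17.2 and 13.9 RPKM in PH-healthy and 10.9, 11.5 and 14.4 RPKM in PH-failure. Every PH-healthy library lay above every low-PAP one, the nearest pair being 13.9 and 13.3 RPKM; low-PAP replicate 6 lay above PH-failure replicates 1 and 2, and the other 5 low-PAP libraries lay below all 6 hypertensive ones. The means were 7.34 ± 3.72, 17.0 ± 3.04 and 12.3 ± 1.89 RPKM (SD, n = 6, 3 and 3). HCN2 rose by 1.22 ± 0.31 in PH-healthy (limma adjusted p = 0.0112), a call lost among all alternatives run only without PH-healthy replicate 1 (1.10, limma adjusted p = 0.0550). In PH-failure the value was 0.78 ± 0.31 and did not pass (limma adjusted p = 0.0628). Without low-PAP replicate 6 it was 0.96 and passed (0.0121), as it did without low-PAP replicate 2 (0.86, 0.0494). Over all alternatives run, libraries left out included, the PH-failure value ran from 0.52 to 1.00 (limma adjusted p 0.0121 to 0.196).

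The difference in HCN2 between the hypertensive groups, -0.43 ± 0.35 for PH-failure minus PH-healthy, did not pass (limma adjusted p = 0.9995), so a larger rise in either group was not shown. For both groups together the call held under every alternative and without each library (0.77 to 1.22, limma adjusted p 0.00102 to 0.0182), and the difference was 1.04 within libraries named 55 and 0.96 within those named 56. The authors' deposited table gives HCN2 a mean of 7.36 RPKM at low and 14.8 at high PAP, a fold of 2.01 and a false discovery rate of 0.0363. In the authors' deposited table it was the 1 member among the 1016 genes under 0.05, and ABCC9 had a fold of 1.59 at a false discovery rate of 0.637.

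HCN4 (ENSBTAG00000017466, chromosome 10, 19980211 to 20021927), the main pacemaker channel of the sinus node, had 31 reads in the 12 libraries together: 9 in low PAP, 11 in PH-healthy and 11 in PH-failure. It measured 0, 0.0269, 0.0322, 0, 0.00893 and 0.0189 RPKM in low PAP, 0.0535, 0.0506 and 0.0196 in PH-healthy and 0.0188, 0.0399 and 0.0611 in PH-failure. As 3 reads correspond to 0.0270 to 0.0570 RPKM, all these values are near that limit, the groups overlapped, and no test was made. HCN3 had 3 reads in all. In the 10 libraries with an HCN4 read, HCN2 stood 166.6 to 711 times higher per length.

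Markers of the conduction system, where HCN transcripts are rich, stood higher together with HCN2. The 12 markers, which hold no HCN gene, summed to 11.9 to 21.9 RPKM in low PAP, 29.1 to 33.1 in PH-healthy and 24.6 to 28.6 in PH-failure. The highest low-PAP sums were in replicates 2 and 6 (21.0 and 21.9), which also had the 2 highest HCN2 levels of their group. Low-PAP replicates 2 and 6 had the highest sums of endothelial markers in their group as well (204 and 235 RPKM), so this match was not particular to conduction markers. Among the markers tested, GJA5 and VSNL1 rose in PH-healthy and GJA5 in PH-failure. SMOC2 was also called in both, but at 0.168 to 0.767 RPKM in low PAP it passed the filter through hypertensive libraries alone; 26.6% and 28% of all genes were higher in the same comparisons. Of the 12 markers 5 were tested, and GJC1 among them was called in neither group. Among those under the filter ISL1 had 0 reads in all libraries and SHOX2 98 reads. CNTN2, also under it, averaged 0.0225, 0.0321 and 0.0418 RPKM in low PAP, PH-healthy and PH-failure. TBX3 averaged 0.485, 0.789 and 1.05 RPKM and CACNA1G 0.185, 0.425 and 0.283 in the same groups, untested as well. The part of such cells in the level of HCN2 was not tested.

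Of the 10 genes listed as other pacemaker channels and HCN partners, 5 were tested. BVES, a Popeye-domain protein of the heart muscle membrane that binds cyclic AMP, measured 16.3 ± 9.16 RPKM in low PAP, 32.3 ± 5.88 in PH-healthy and 22.6 ± 2.49 in PH-failure, and rose in PH-healthy (1.10 ± 0.35, limma adjusted p = 0.0299). That call was lost on leaving out low-PAP replicate 1, 3 or 5 or PH-healthy replicate 1 or 3 (limma adjusted p 0.0534 to 0.105). Its relative POPDC3 went the other way, from 50.8 ± 14.2 RPKM to 31.8 ± 2.45 and 32.2 ± 7.85, and fell by 0.63 ± 0.20 in both groups (limma adjusted p = 0.0288 for PH-healthy and 0.0300 for PH-failure). The 2 calls of POPDC3 were lost on leaving out low-PAP replicate 4, any one PH-healthy library or PH-failure replicate 2 or 3 (limma adjusted p 0.0524 to 0.130), while the call for both groups together held without each library.

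**Figure D4:**
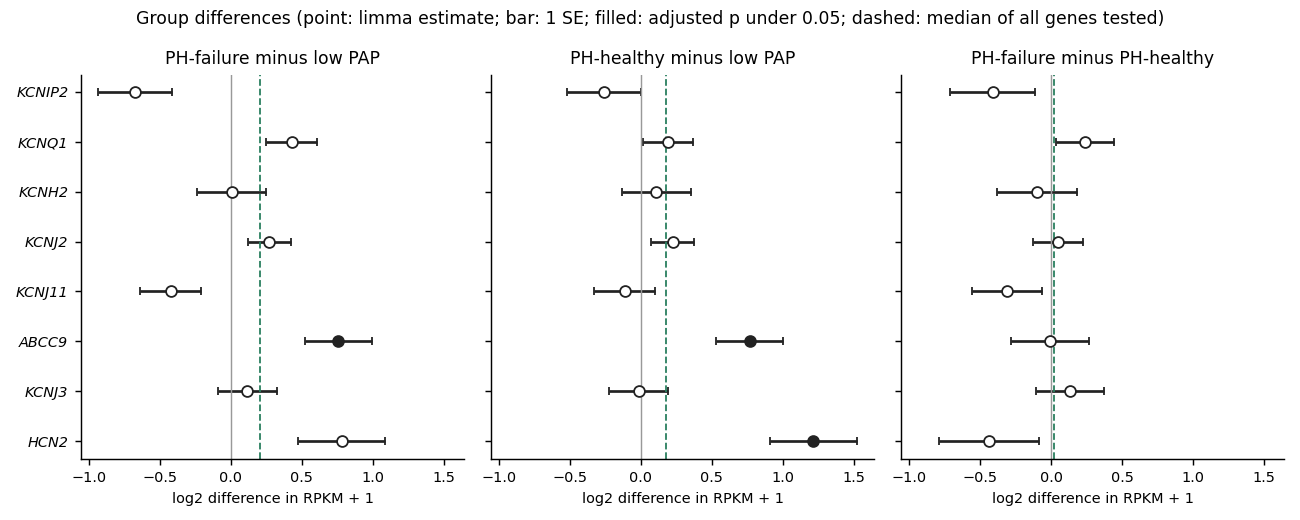
Difference in mean log2(RPKM + 1) between groups for the 8 members tested, with 1 SE; filled points passed the threshold of 0.05 on the adjusted p of limma, and the dashed line is the median of all 11374 genes. ABCC9 passed in both comparisons with low PAP and HCN2 in PH-healthy, and the comparison of PH-failure with PH-healthy has no filled point.

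Between PH-failure and PH-healthy, 0 of the 8 members passed limma's test, with 0 of 8 also at an unadjusted p under 0.05; of all genes 1, or 0.00879%, was called, and 308 had an unadjusted p under 0.05. The members' differences ran from -0.43 (HCN2) to 0.24 (KCNQ1), with SEs of 0.17 to 0.35, and a p that misses the threshold does not show that the groups were alike. KCNIP2 stood at -0.41 ± 0.30 and KCNJ11 at -0.31 ± 0.25, and both rested on PH-failure replicate 3: without it they were 0.03 and -0.02. In PH-failure KCNQ1, KCNJ2, KCNH2 and KCNJ3 stood at 0.51, 0.15, 0.24 and 0.05 from low PAP among libraries named 55, with 1 PH-failure library, and at 0.39, 0.41, -0.10 and 0.16 among those named 56. The comparisons of PH-failure and PH-healthy with low PAP share the same 6 low-PAP libraries. Of those, replicate 6 had the highest value of its group for 6 of the 8 members (KCNJ2, KCNJ11, ABCC9, KCNQ1, KCNH2 and HCN2), and replicate 1 the lowest for 5 (KCNJ2, KCNQ1, KCNH2, KCNJ3 and HCN2).

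**Figure D5:**
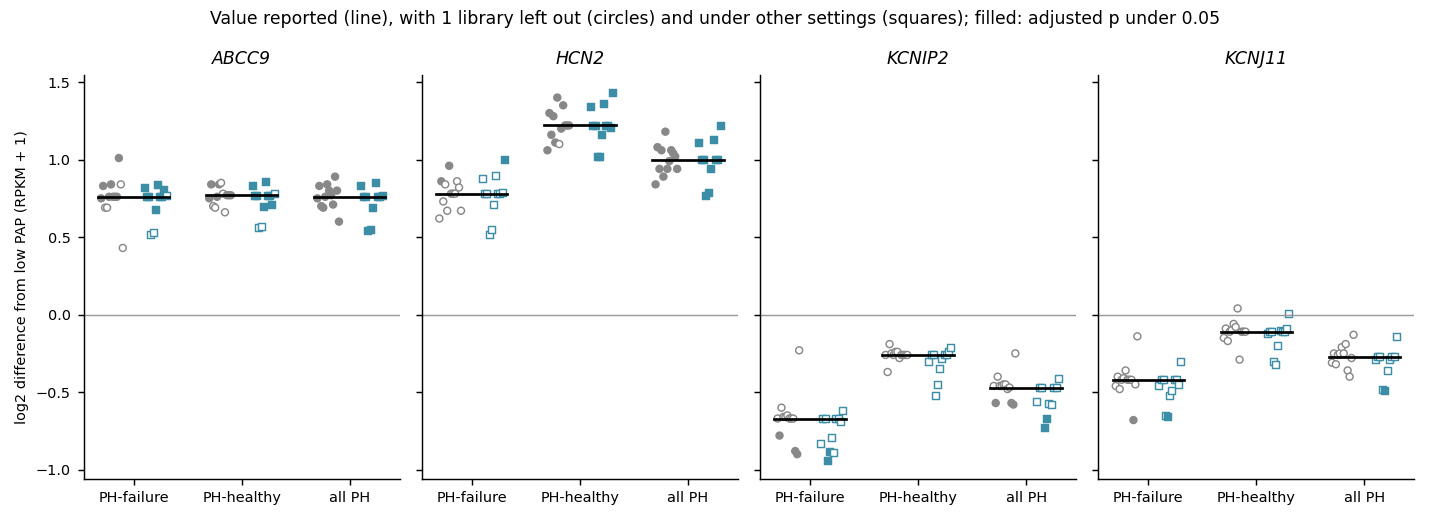
Log2 difference from low PAP of ABCC9, HCN2, KCNIP2 and KCNJ11 as reported (line), with each of the 12 libraries left out (circles) and under the other settings run (squares); filled symbols have an adjusted p under 0.05. HCN2 and ABCC9 kept their sign and, for all PH, their call throughout; the open circle nearest 0 for KCNIP2 and KCNJ11 in PH-failure is the value without PH-failure replicate 3.

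Which members were called depended on the scaling between libraries, while no called member changed its direction. After median-ratio scaling, 2 members were higher (HCN2 and ABCC9) and 2 lower (KCNIP2 and KCNJ11) in the hypertensive groups together, and after quantile normalization 2 were higher and 1 lower (KCNIP2), against 2 and 0 as reported. The split over all genes moved with it, from 4243 higher and 1178 lower as reported to 2504 and 2542 after median-ratio scaling and 1930 and 2405 after quantile normalization. For PH-failure alone the calls were 0 higher and 2 lower after median-ratio scaling and 0 and 1 after quantile normalization, against 1 and 0. Over all genes the PH-failure calls were 1530 higher and 1681 lower after median-ratio scaling and 1133 and 1418 after quantile normalization, against 3190 and 658. The median log2 difference of the 8 tested members, 0.20 for PH-failure and 0.15 for PH-healthy, was close to that of all genes, 0.21 and 0.18.

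Of 82 other potassium channel genes listed, 76 were in the table, and only 13 reached the filter of at least 1 RPKM in at least 3 libraries. In PH-failure 1 of the 13 rose and 3 fell, and in PH-healthy 2 rose and 2 fell, where 33.8% and 34.7% of all genes were called; the fallen genes were KCNJ8, ABCC8 and, in PH-failure, KCNJ5, described above. KCNE3, a small accessory subunit, rose in PH-failure from 0.563 ± 0.304 to 1.38 ± 0.318 RPKM (0.62 ± 0.18, limma adjusted p = 0.0206). It rests on 1 to 14 reads a library, passed the filter through its hypertensive libraries, and lost the call without PH-failure replicate 3 (0.53, 0.0931). KCNMB3, an accessory subunit of the large-conductance calcium-activated channel, rose in PH-healthy from 4.03 ± 1.07 to 7.49 ± 1.95 RPKM (0.75 ± 0.20, limma adjusted p = 0.0153), and the call was lost without PH-healthy replicate 1 or 2 (0.0564 and 0.0791). The voltage-gated pore KCNA5, at 2.73 ± 1.21, 3.19 ± 0.907 and 2.08 ± 0.624 RPKM, did not pass in any comparison.

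Scaffold and trafficking genes that hold these channels at the membrane were called in part. Of the 11 tested, 3 rose in PH-failure and 4 in PH-healthy, where 28% and 26.6% of all genes were higher. AKAP9, which tethers protein kinase A to KCNQ1, rose from 4.00 ± 0.637 RPKM to 7.72 ± 1.33 in PH-healthy (0.80 ± 0.14, limma adjusted p = 0.0024) and 6.73 ± 1.18 in PH-failure (0.63 ± 0.14, 0.00865). PIAS3, also known as a potassium channel chaperone, doubled in mean level, from 1.88 ± 0.638 to 3.80 ± 0.300 and 3.80 ± 0.259 RPKM (0.76 ± 0.16 in both groups; limma adjusted p = 0.00462 and 0.00561). SEC24B, a coat protein of export from the endoplasmic reticulum, rose by 0.37 and 0.34 (limma adjusted p = 0.0204 and 0.0324) in PH-healthy and PH-failure. ANK2, the membrane adaptor ankyrin-B, rose in PH-healthy (0.68, limma adjusted p = 0.0421). The calls of AKAP9 and PIAS3 held without each library. That of AKAP9 in PH-failure was lost after quantile normalization (0.31, limma adjusted p = 0.123) and with the replicate number as a block. Those of SEC24B and ANK2 were each lost without any one of at least 3 libraries and after quantile normalization or median-ratio scaling. SEC24B in PH-failure stood at 0.33 (limma adjusted p = 0.0936) without PH-failure replicate 3.

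Transcription factors known to act on one or more of these genes were called in part: of 8 tested, 3 rose in PH-failure, where 28% of all genes were higher, and 4 in PH-healthy, where 26.6% were, and 0 fell. TBX20, a T-box factor of heart muscle, measured 3.35 to 7.17 RPKM in low PAP, 13.2, 18.8 and 18.4 in PH-healthy, and 15.0, 13.2 and 19.7 in PH-failure, with no overlap. It rose by 1.45 ± 0.22 in PH-healthy and 1.38 ± 0.22 in PH-failure (limma adjusted p = 0.000946 and 0.00177). IRX3, an Iroquois factor of the ventricular conduction system, measured 1.67 to 5.29 RPKM in low PAP and 6.94 to 10.6 in the hypertensive animals, again without overlap (1.15 ± 0.23 and 1.02 ± 0.23; limma adjusted p = 0.00404 and 0.00834). The calls of TBX20 and IRX3 held without each library and under all alternatives run. IRX5, a relative known to repress a KCND gene in mouse ventricle, rose in both groups (0.93 and 0.74; limma adjusted p = 0.00912 and 0.0250), and ETV1, a factor of fast-conducting muscle, in PH-healthy (0.92, 0.0245). KLF15, known to activate KCNIP2, fell when both hypertensive groups were averaged (-0.45, limma adjusted p = 0.0428), at 13.2 ± 2.84, 10.2 ± 3.73 and 8.78 ± 0.861 RPKM. The calls of IRX5 in PH-failure, ETV1 and KLF15 were lost without any one of 3, 2 and 8 libraries. That of IRX5 in PH-failure was also lost after quantile normalization and after median-ratio scaling. That of ETV1 was lost after quantile normalization and with the replicate number as a block, and that of KLF15 under 4 other settings.

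Over all lists of other channel and partner genes, 49 were tested. In PH-failure 10 rose and 6 fell, 16 of 49 where 33.8% of all genes were called; in PH-healthy 13 rose and 5 fell, 18 of 49 where 34.7% were called; and between the hypertensive groups 0 were called by limma. With both hypertensive groups averaged 17 rose and 8 fell, where 47.7% of all genes were called; after quantile normalization 6 rose and 10 fell, and after median-ratio scaling 11 rose and 11 fell. Of all genes called, 78.3% were higher as reported, 44.5% after quantile normalization and 49.6% after median-ratio scaling, so the split of these genes moved as that of all genes did. The calls of TBX20, IRX3 and PIAS3 held under each of the 3 other scalings.

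The genes whose levels followed those of HCN2 and ABCC9 most closely were sought among all genes tested, by Pearson's correlation of log2(RPKM + 1) over the 12 libraries, which share the 3 groups and the same scaling. For HCN2 they were PPP1R13B, CERK, FAM47E-STBD1, DUSP8 (r = 0.97 each) and UBQLN1 (r = 0.96). For ABCC9 they were RNF111 (r = 0.98), RBM12B, FNDC3A, ABCA1 and UNC119B (r = 0.97 each). None of these 10 is a channel gene.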

How the data were processed

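Per the labels' protocols, right ventricular RNA was taken up in Trizol and turned into Illumina libraries. The authors' table gives, per the file headers, RPKM for each gene and library, with their mean RPKM at low and high PAP, a signed fold between those means, a p-value and its false discovery rate. The aligner, genome build, counting and strand setting remain not given in the sources used here; positions are those of the deposited table. The authors' means differ from the 6-library means by up to 8.23% for members above 1 RPKM.

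The members and gene lists were chosen with earlier results of these data known. RPKM values were whole multiples of 1 read, within 0.05 reads, in all 17284 genes above 0, which gave the reads behind each value; intervals in reads cover counting error only. The 11374 genes that reached 1 RPKM in 3 or more libraries were fitted as log2(RPKM + 1), pseudocount 1, with limma 3.58.1 in R 4.3.3, with robust moderation and a trend, in 1 model of 3 groups over 12 libraries. P-values were adjusted by Benjamini-Hochberg over all genes tested, with a threshold of 0.05, for 4 comparisons. The fit was tested on simulated data. KCND3, under the filter, was compared by 2-sided exact permutation tests. Ratios, sums of markers and correlations were made with Python 3.11.15, numpy 2.4.6 and pandas 2.3.3, and plots with matplotlib 3.10.9.

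Named genes are the 10 members; from each list, per comparison, up to 4 called genes per direction by smallest p; known partners of members whether called or not; and the 5 genes most like each of the 2 members of smallest p. Some of the genes so chosen are not reported here. Alternatives were another pseudocount (0.1), other filters, 3 other scalings, voom on the recovered reads, another moderation, only the groups compared, the number in the library name as a term, the replicate number as a block, and each library left out. No sequences were used.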

Additional observations from a re-analysis of the deposited data

Results flagged for a closer look

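Among the members with 4 to 10 libraries in a group, 1 value stood apart from its group by Dixon's criterion at 95%, which chance meets in about 1 of 20 groups of values; 10 such groups were looked at. It is KCNJ2 in low-PAP replicate 6, at 19.1 RPKM, where the other 5 low-PAP libraries held 11.2 to 13.9 RPKM. Without it the KCNJ2 difference was 0.36 for PH-failure (limma adjusted p = 0.0313) and 0.34 for both hypertensive groups together (0.0139), past the threshold in both. These were the smallest p-values of all alternatives run. Other alternatives brought the difference down to 0.03 for PH-failure and 0.02 for both groups, with limma adjusted p up to 0.869 and 0.866.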

How the results depend on the processing

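Counts of called members moved with the scaling. For PH-failure against low PAP, 1 member was called as reported, 2 after median-ratio scaling, and 0 to 4 with 1 library left out. For PH-healthy the count was 2 as reported, 1 after quantile normalization, 1 after median-ratio scaling, and 0 to 2 with 1 library left out. For both hypertensive groups it was 2 as reported, 4 after median-ratio scaling, and 2 to 3 with 1 library left out, and between the hypertensive groups limma called 0 under every setting. Of the other channel and partner genes, 16 were called in PH-failure, 18 in PH-healthy and 25 in both. With 1 library left out these were 7 to 20, 7 to 20 and 20 to 25, and quantile normalization gave 16 for both groups together. Calls over all 11374 genes moved too. As reported 3190 were higher and 658 lower in PH-failure, 3024 and 927 in PH-healthy, and 4243 and 1178 in both. After median-ratio scaling they were 1530 and 1681, 1824 and 1861, and 2504 and 2542. After quantile normalization they were 1424 and 1622 in PH-healthy and 1930 and 2405 in both. The numbers of all genes called with 1 library left out are not given here.

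The replicate numbers do not pair animals: same-numbered libraries deviated from their group means with correlations of -0.26 to 0.19, and 0 libraries correlated best with their own number. With the replicate number as a block, 1 member (HCN2) was called in PH-failure, at 1.00 (limma adjusted p = 0.0486), and 1 in PH-healthy. The other channel and partner genes called were then 7 in PH-failure, 9 in PH-healthy and 11 in both. The share of all genes called with that block is not given here, so these counts cannot be set against it. KCNJ11 in PH-healthy stood at 0.01 with the block.

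Differences that were not called changed sign. KCNH2 in PH-failure, PH-healthy and both stood at -0.24, -0.10 and -0.17 after quantile normalization, at -0.22, -0.09 and -0.16 after median-ratio scaling, and at -0.08 and -0.03, in PH-failure and both, scaled to non-mitochondrial reads. KCNJ3 in PH-failure and both stood at -0.16 and -0.22 after quantile normalization and at -0.02 and -0.07 after median-ratio scaling; in PH-healthy it was 0.02 with a pseudocount of 0.1 and 0.07 with voom. KCNQ1 in PH-healthy was -0.10 after quantile normalization, and ABCC9 between the hypertensive groups 0.10 with the number in the library name as a term. With 1 library left out, KCNH2 ran from -0.11 to 0.13 in PH-failure, -0.07 to 0.36 in PH-healthy and -0.03 to 0.19 in both; KCNJ3 from -0.15 to 0.08 in PH-healthy and -0.05 to 0.15 in both; and KCNJ11 in PH-healthy from -0.29 to 0.04. Between the hypertensive groups KCNIP2 ran from -0.64 to 0.03, KCNJ2 from -0.05 to 0.16, ABCC9 from -0.33 to 0.24, KCNH2 from -0.36 to 0.07 and KCND3 from -0.0349 to 0.0798. The causes were not tested.

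Of the values of single genes, 923 with 1 library left out and 819 under the other settings kept their direction and side of the threshold, 157 and 113 lost a call, 12 and 7 gained one, and 24 and 17 changed sign. Fitting only the groups compared gives no value of its own for both hypertensive groups together. Groups of 3 and reads as few as those of KCND3 and HCN4 limit what could be detected.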

Other observations

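KCNN1, the gene of the small-conductance calcium-activated potassium channel SK1, was under the filter on low values and is named here after its values were seen. It measured 0.0219 to 0.0951 RPKM in the 6 low-PAP libraries (15 reads in all), 0.751, 0.768 and 0.794 RPKM in PH-healthy (100 reads) and 0.319, 0.634 and 1.21 RPKM in PH-failure (94 reads). The hypertensive and low-PAP libraries did not overlap, and the mean over the hypertensive animals was 14.9 times that at low PAP. In the limma fit without a filter, over 17284 genes, the difference was 0.75 ± 0.12 for PH-healthy (adjusted p = 0.00251) and 0.68 ± 0.12 for PH-failure (0.0051) on the log2(RPKM + 1) scale, which understates a change at so low a level. It is 1 of 8 calcium- and sodium-activated channel genes on the lists, of which 0 passed the filter.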
